A study of Mus musculus with 4 samples.

Results

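Irg1, Ido1, Nos2, Arg1, Arg2, Ass1, Kmo, Kynu and Wars encode enzymes that make itaconate, break down tryptophan or arginine, produce nitric oxide, or charge transfer RNA with tryptophan. The 9 genes were taken as the non-control spots of the array whose gene name was one of these symbols, which gave 13 spots, 1 for each of 13 probes, out of 59305 non-control spots. The choice was made with the difference between control and mutant mice known. The values of the enzymes in that comparison are therefore given as a description, without a test, and only genes outside the 9 were tested. Of the 9 genes, 8 had a probe well above background on all 4 arrays and were among the 19325 genes measured, and Kynu had none.

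Whole-colon RNA from C57BL/6 mice was hybridised to 1-colour Agilent arrays on day 5 of drinking dextran sulphate sodium (DSS), a polymer that damages the gut lining and so causes colitis. The control mice were Junb fl/fl, with loxP-flanked Junb alleles and no Cre. The mutant mice were Junb fl/fl Cd4-Cre, in which the same alleles are cut in cells that express or have expressed Cd4, that is, in the T cell lineage. Each genotype had 2 arrays, all 4 mice had received DSS, and no mouse without DSS was measured. Age and sex are not stated in the labels. Per the design text, the arrays were run to characterise the more severe colitis of the mutant mice.

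The enzymes are known from inflamed tissue. Interferon gamma and bacterial products switch on Irg1, Ido1 and Nos2 in macrophages, and interferon gamma also switches on Ido1, Nos2 and Wars in epithelial cells. Itaconate, made from an intermediate of the citric acid cycle, inhibits succinate dehydrogenase and bacterial growth. Ido1 opens the kynurenine pathway, which depletes tryptophan, and Nos2 and the arginases compete for arginine.

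Of 56605 probes, each array had 27935 to 29090 well above background and no saturated spot. All arrays lay on 1 slide. Xist, transcribed from the inactive X chromosome, had a log2 signal of -0.55 (control) and -0.77 (mutant) in replicate 1, against -6.13 and -6.43 in replicate 2. Each genotype thus had 1 female and 1 male mouse, so the female and the male pair are also compared separately. Junb itself differed by 0.15 ± 0.11 (SE, limma adjusted p = 0.691), and whole colon holds many cells in which Cd4-Cre leaves Junb intact. The colon epithelial genes Krt8 and Lgals4 differed by 0.11 ± 0.11 and 0.17 ± 0.12. The 10 epithelial markers summed to 1176 and 1192 in the controls, against to 1251 and 1332 in the mutants, in multiples of the array's 75th percentile, a sum that the brightest probes dominate. In whole tissue, fewer cells of a type and less RNA per cell cannot be told apart.

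The largest differences among the 9 genes were those of Irg1, Ido1 and Nos2, which were 4.29-fold, 2.96-fold and 2.09-fold higher in the mutants. Wars was 1.59-fold higher. Ass1 was 1.13-fold higher and Kmo 1.07-fold lower, and the controls and mutants overlapped in Arg1 and Arg2. Both mutants lay above both controls in 5 of the 8 measured enzymes and below them in 1, where the same held for 25.7% and 17.6% of all genes. A difference of at least 2-fold with an unadjusted p under 0.05 was met by 1.36% of all genes. The enzymes had been chosen on this comparison, so nothing is read from these counts. All signals are given as the log2 of the signal over the array's 75th percentile, and differences as mutant minus control on that scale with the moderated standard error, over 2 arrays of each genotype.

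**Figure D1:**
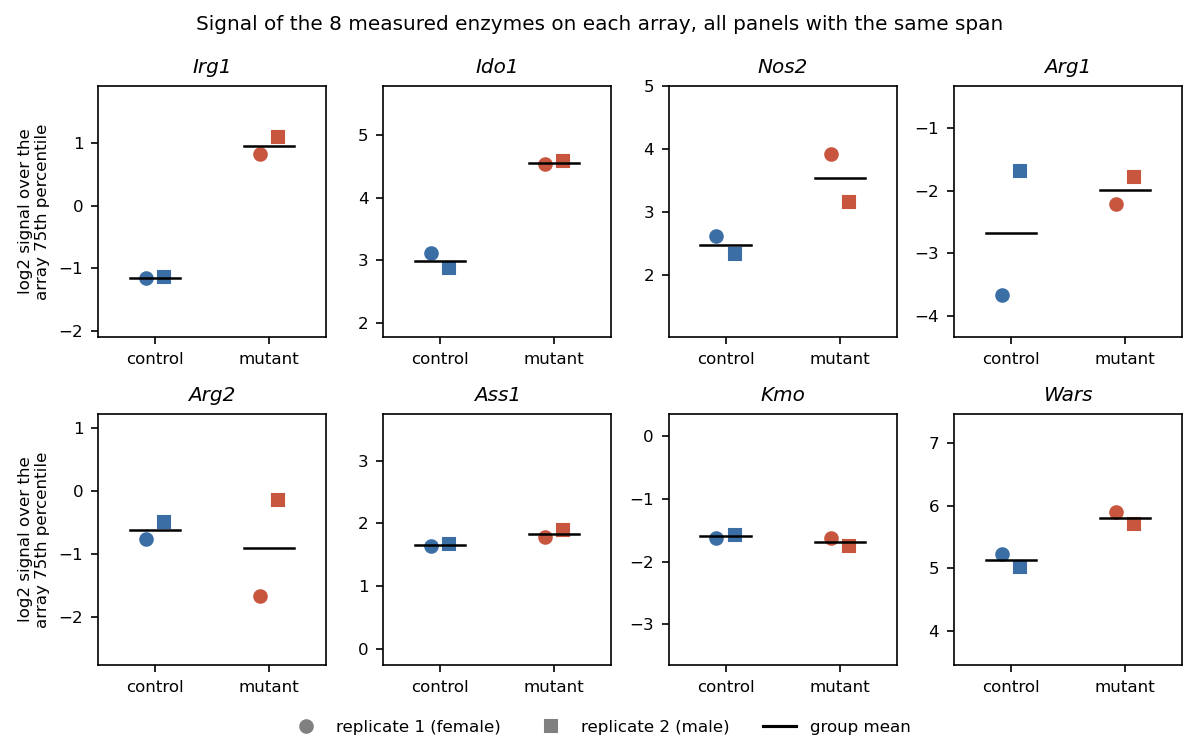
Log2 signal over the array's 75th percentile (vertical axis) of the 8 measured enzymes in control and mutant colon, with circles for replicate 1, squares for replicate 2 and a line at the group mean. Irg1 lies at -1.16 and -1.14 in the controls, against at 0.81 and 1.097 in the mutants, and the groups overlap in Arg1 and Arg2.

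Irg1 encodes the enzyme that makes itaconate from cis-aconitate, and its current symbol is Acod1. Its probe lies on chromosome 14, 103455171 to 103455231 (mm9). The log2 signal was -1.16 and -1.14 in the controls, against 0.81 and 1.097 in the mutants. The lowest mutant lay 1.95 above the highest control, and the 2 controls differed by little. The difference was 2.10 ± 0.15, with 1.97 in the female pair, against 2.23 in the male pair. Without 1 array it ranged from 1.96 to 2.24, and with normexp background correction it was 1.74.

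The bases before the start of Irg1 are shown because this enzyme had the largest difference. Those of Kmo, whose difference was close to 0, stand beside them. The sequences are from RefSeq (GRCm38.p6), which held a promoter window for Irg1, Kmo and Ass1, and cover 250 bases before the start of each gene, on its strand. The Irg1 window is chr14:103046762-103047011 and the Kmo window chr1:175631943-175632192, both on the plus strand. Capitals mark a match to 1 of 4 motifs searched on both strands, the AP-1 motif TGANTCA, the GAS motif TTCNNNGAA, the ISRE motif (GAAA, any 2 bases, GAAA) and the kappaB motif (GGG, any 5 bases, CC).
Irg1: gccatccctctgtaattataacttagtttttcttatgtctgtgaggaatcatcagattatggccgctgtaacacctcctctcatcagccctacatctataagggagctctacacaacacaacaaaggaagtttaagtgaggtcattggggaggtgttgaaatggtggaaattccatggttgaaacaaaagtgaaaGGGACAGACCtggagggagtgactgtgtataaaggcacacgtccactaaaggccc
Kmo: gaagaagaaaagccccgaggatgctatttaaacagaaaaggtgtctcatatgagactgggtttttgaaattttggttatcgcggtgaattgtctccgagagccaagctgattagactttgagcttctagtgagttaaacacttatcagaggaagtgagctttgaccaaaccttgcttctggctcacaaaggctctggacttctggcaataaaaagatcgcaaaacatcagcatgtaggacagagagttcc
The Irg1 window held 1 match, to the kappaB motif, at bases -55 to -46. The Kmo window held none, and the Ass1 window held 6 matches to the kappaB motif, some of which overlap. Of 32851 promoter windows of this length, 45.8% held the kappaB motif, 6.75% the AP-1 motif, 7.02% the GAS motif and 2.98% the ISRE motif. A match describes the letters of the window and not the binding of a factor.

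The genes next to Irg1 in the reactions it takes part in differed by less. The 21 listed genes were a selection and not the whole citric acid cycle. They came from the cycle and related reactions, itaconate removal and the NRF2 response that itaconate is known to set off, with Atf3. All were measured. None had an unadjusted p under 0.05 in limma, where 9.29% of all genes did (1796 of 19325) and no gene passed an adjusted p of 0.05. Under some other settings 1 or 2 genes of the list passed the unadjusted threshold. The median difference was 0.06 (13 higher, 8 lower), beside 0.02 over all genes. It was -0.07 after quantile normalization and -0.13 without scaling between arrays. The gene of the stress factor Atf3 had the smallest p, at a difference of -0.41 ± 0.16, followed by Idh1, encoding cytosolic isocitrate dehydrogenase, at 0.36 ± 0.15. Sdhc, a subunit gene of succinate dehydrogenase, differed by 0.18 ± 0.10, and Idh3a, of the mitochondrial isocitrate dehydrogenase, by 0.23 ± 0.13.

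Ido1 encodes indoleamine dioxygenase, which turns tryptophan into the precursor of kynurenine. Its probe lies on chromosome 8, 25694798 to 25694857 (mm9). The log2 signal was 3.11 and 2.88 in the controls, against 4.54 and 4.58 in the mutants. The mutants lay close to each other, and the lower one was 1.43 above the highest control. The difference was 1.56 ± 0.12, with 1.43 in the female, against 1.70 in the male pair, and it ranged from 1.45 to 1.68 without 1 array.

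No difference of this size was measured for the later enzymes of the pathway. Kmo encodes kynurenine monooxygenase. Its brighter probe (chromosome 1, 177590673 to 177590732, mm9) gave -1.62 and -1.58 in the controls, against -1.63 and -1.76 in the mutants. The groups were 0.01 apart, and the difference was -0.09 ± 0.17. The dimmer Kmo probe (177590200 to 177590259) was well above background in both mutants and neither control. It gave -4.22 and -4.01 in the controls, against -3.81 and -4.05 in the mutants, so the groups overlapped close to the background limit. With the mean of both probes, the Kmo difference turned to 0.05.

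Kynu encodes kynureninase, which acts after Kmo. None of its 3 probes, on chromosome 2, cleared the background limit on any of the arrays, so no difference is given. The brightest of them (43538117 to 43538176, mm9) had a processed signal of 8.51 and 13.2 in the controls, against of 8.77 and 10.5 in the mutants. The lowest signal called well above background was between 14.1 and 21.0, depending on the array.

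**Figure D2:**
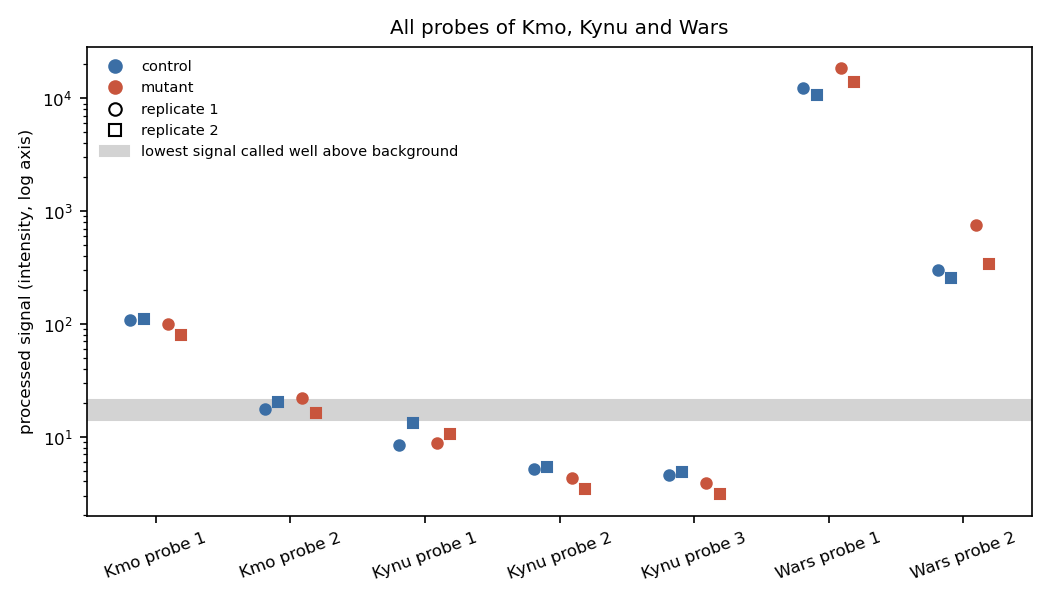
Processed signal on a log axis for every probe of Kmo, Kynu and Wars on each array, with controls in blue, mutants in red, circles for replicate 1 and squares for replicate 2. The grey band is the lowest signal called well above background, 14.1 to 21.0, and all 3 Kynu probes lie below it.

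Of 23 other genes of tryptophan use, 14 were measured, and Ido2 and Tdo2, which encode the other enzymes of the first step, fell short of the background limit on each array. The list had a median of -0.20 (2 higher, 12 lower), beside 0.02 over all genes. By limma, 3 genes were lower and none higher at an unadjusted p under 0.05, which 3.98% of all genes met as lower and 5.31% as higher. No gene of the list passed the adjusted threshold, and without mutant replicate 2 the list kept 1 of these calls. Tph1, the tryptophan hydroxylase of serotonin-making gut cells, lay at 0.55 and 0.58 in the controls, against -0.53 and -0.00 in the mutants (-0.83 ± 0.20). Ddc, the decarboxylase that completes serotonin, differed by -0.62 ± 0.16, and Ccbl1, a kynurenine aminotransferase, by -0.43 ± 0.13. At that threshold Ddc was lost when mutant replicate 2 was left out, and Ccbl1 when control replicate 1 or mutant replicate 2 was, or with median scaling. Ahrr, the repressor of the aryl hydrocarbon receptor that kynurenines can activate, was not well above background on either mutant array. It was 1.71-fold lower there (-0.77 ± 0.33, limma unadjusted p = 0.0631). Across the other settings its difference ranged from -1.03 to -0.10.

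Markers of enteroendocrine cells, which include the serotonin-making cells, moved with Tph1 and Ddc. This list of 5 genes was added after the data were seen. All 5 were lower in both pairs, with a median of -1.09, and their summed level was 61.3 and 63.1 in the controls, against 29.2 and 29.9 in the mutants. Their part in the values of Tph1 and Ddc was not tested.

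Wars encodes the cytosolic tryptophanyl-tRNA synthetase. Its brighter probe (chromosome 12, 110098245 to 110098304, mm9) lay at 5.23 and 5.03 in the controls, against 5.89 and 5.70 in the mutants, with no overlap. The difference was 0.67 ± 0.13, with 0.66 in the female, against 0.67 in the male pair, and 0.57 to 0.77 without 1 array. It was 0.43 after quantile normalization, less by a factor of over 1.5. A second probe (110104366 to 110104425), annotated to another Wars transcript, gave -0.13 and -0.37 in the controls, against 1.27 and 0.34 in the mutants. Whether it measures that transcript alone was not tested. Its difference was 1.06 ± 0.32, and uneven between the pairs, at 1.39 in the female, against 0.72 in the male pair. Both probes were higher in both mutants. The sequence of the second probe is given because its difference was the larger and the less even (60 deposited bases, printed here in lower case).
Wars: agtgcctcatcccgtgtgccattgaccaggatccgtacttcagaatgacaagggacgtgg

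The other transfer RNA synthetases show how far Wars stood from its family. Of 20 listed synthetases, all were measured, 17 were higher and 3 lower, and the median was 0.16. The largest difference in the list was 0.44. By limma, 3 were higher at an unadjusted p under 0.05 and none was lower, beside 5.31% and 3.98% of all genes. These were Vars (0.44 ± 0.13), Qars (0.37 ± 0.11) and Kars (0.32 ± 0.11), the synthetases for valine, glutamine and lysine, and Rars, for arginine, followed at 0.31 ± 0.14. None of the 3 calls held without control replicate 1, without mutant replicate 1 or without scaling between arrays. The median was -0.03 without scaling, which moved the median of all genes to -0.17. The gap between Wars and the list was not tested, since Wars had been chosen for its difference.

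Nos2 encodes the inducible nitric oxide synthase, made by activated macrophages and by inflamed colon epithelium. Its probe lies on chromosome 11, 78773567 to 78773626 (mm9). The log2 signal was 2.62 and 2.33 in the controls, against 3.93 and 3.15 in the mutants. The groups did not overlap, and the mutants were further apart than the controls. The difference was 1.07 ± 0.28, with 1.31 in the female pair, against 0.82 in the male pair. Without mutant replicate 1 it was 0.68, and without mutant replicate 2 it was 1.45. Nos3, of the endothelium, differed by -0.14 ± 0.22 (limma adjusted p = 0.864), and Nos1, of neurons, stayed below the background limit on each array.

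**Figure D3:**
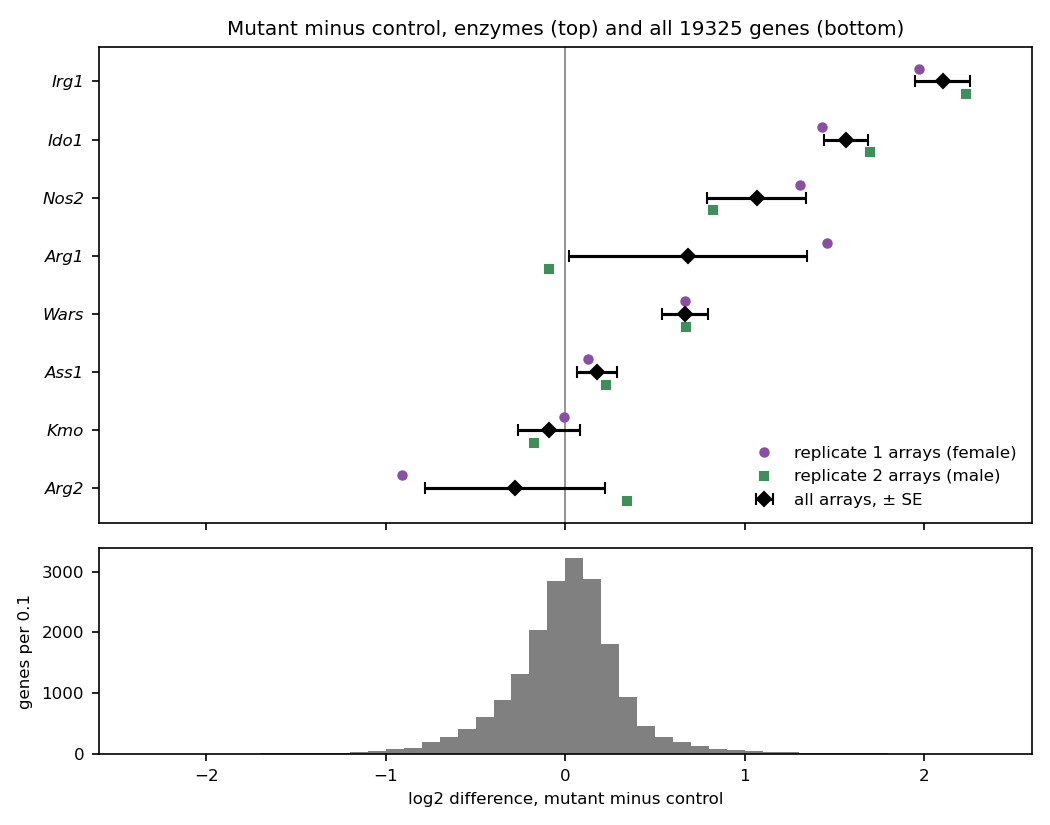
Top, log2 difference (mutant minus control, horizontal axis) of each enzyme with its standard error, and within the female and the male pair. Bottom, the number of all 19325 genes per 0.1 of log2 difference. Irg1 (2.10), Ido1 (1.56) and Nos2 (1.07) lie farthest to the right, and the pairs lie on opposite sides of 0 for Arg1 and Arg2.

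The arginases, which split arginine into ornithine and urea, were not separated by genotype. Arg1 encodes the cytosolic form, typical of liver and of wound-healing macrophages, and its probe lies on chromosome 10, 24636194 to 24636253 (mm9). Its log2 signal was -3.67 and -1.69 in the controls, against -2.21 and -1.78 in the mutants. Control replicate 1 was low, near the lowest value called well above background on that array (-3.99). The other 3 arrays were close to each other. The difference was 0.68 ± 0.66, with 1.46 in the female pair, against -0.09 in the male pair. It was 0.37 with normexp background correction and turned to -0.31 without control replicate 1.

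Arg2 encodes the mitochondrial form, and its probe lies on chromosome 12, 80252972 to 80253031 (mm9). It gave -0.76 and -0.50 in the controls, against -1.67 and -0.15 in the mutants. Here mutant replicate 1 was low, and the other mutant was the highest array. The difference was -0.28 ± 0.50, with -0.91 in the female pair, against 0.35 in the male pair, and it turned to 0.48 without mutant replicate 1.

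The probes of the arginases are shown because these genes are close relatives. They share no run longer than 7 of 60 bases. The deposited bases are printed here in lower case.
Arg1: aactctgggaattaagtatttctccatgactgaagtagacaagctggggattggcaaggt
Arg2: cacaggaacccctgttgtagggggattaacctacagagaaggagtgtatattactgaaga

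The sums of the macrophage and the mast cell markers moved over the arrays in the order of Arg1. Those of the T cell, monocyte, neutrophil and endothelial markers had other orders. The summed level of 8 macrophage markers was 15.0 and 22.9 in the controls, against 15.5 and 20.2 in the mutants. That of the mast cell genes Cpa3, Mcpt1, Mcpt2 and Tpsb2 was 0.481 and 3.17 in the controls, against 0.867 and 1.16 in the mutants. In both sums, as in Arg1, control replicate 1 was lowest and control replicate 2 highest. The brightest genes, Csf1r and Mcpt1, weigh most in these sums. Mcpt1, a mast cell protease gene, had the same order, at -2.13 and 1.34 in the controls, against -0.68 and -0.24 in the mutants. Tpsb2 did not, at -2.29 and -2.81 in the controls, against -2.94 and -2.78 in the mutants, with control replicate 1 highest. The eosinophil genes Epx, Prg2 and Ccr3 of that list were not measured. The part of these cells in the Arg1 values was not tested.

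Ass1 encodes argininosuccinate synthetase, which with Asl rebuilds arginine from citrulline, the by-product of nitric oxide synthesis. Its probe lies on chromosome 2, 31376068 to 31376127 (mm9). The signal was 1.65 and 1.67 in the controls, against 1.78 and 1.90 in the mutants. The groups did not overlap, but the difference was small, 0.18 ± 0.11, and it was -0.01 without scaling between arrays. Asl differed by 0.09 ± 0.15 (limma adjusted p = 0.882).

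Of 31 other genes of arginine, polyamine and nitric oxide metabolism, 27 were measured, with a median of 0.09 (16 higher, 11 lower), beside 0.02 over all genes. The median was -0.10 without scaling between arrays and -0.01 without control replicate 1. By limma, 2 were higher and 2 lower at an unadjusted p under 0.05, which 5.31% and 3.98% of all genes met, and none passed the adjusted threshold. Gch1, the first enzyme in the synthesis of the cofactor tetrahydrobiopterin that nitric oxide synthases need, lay at 3.57 and 3.75 in the controls, against 4.16 and 3.98 in the mutants. The groups did not overlap, and the difference was 0.41 ± 0.13. Prodh, a proline oxidase, differed by 0.62 ± 0.18. Gch1 was lost at that threshold without scaling or when either replicate 1 array was left out, and Prodh when either replicate 2 array was. Odc1, which makes the polyamine putrescine from ornithine, differed by 0.20 ± 0.13 and did not pass (unadjusted p = 0.182).

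The genes lower at this threshold were Ddah2 (-0.73 ± 0.13), which degrades an inhibitor of nitric oxide synthases, and Gucy1a3 (-0.62 ± 0.15), a subunit of the nitric oxide receptor in smooth muscle. Ddah2 lay at 0.98 or above in the controls and 0.36 or below in the mutants, and both genes kept an unadjusted p under 0.05 without any 1 array. All 8 smooth muscle markers were lower too, with a median of -0.60. Their summed level was 388.3 and 424.8 in the controls, against 297.6 and 286.7 in the mutants, and their part in the lower genes was not tested. Ddah1, the other form of the Ddah2 enzyme, went the other way, at 0.41 ± 0.17 with both mutants above both controls. It did not pass the threshold (limma unadjusted p = 0.0570).

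**Figure D4:**
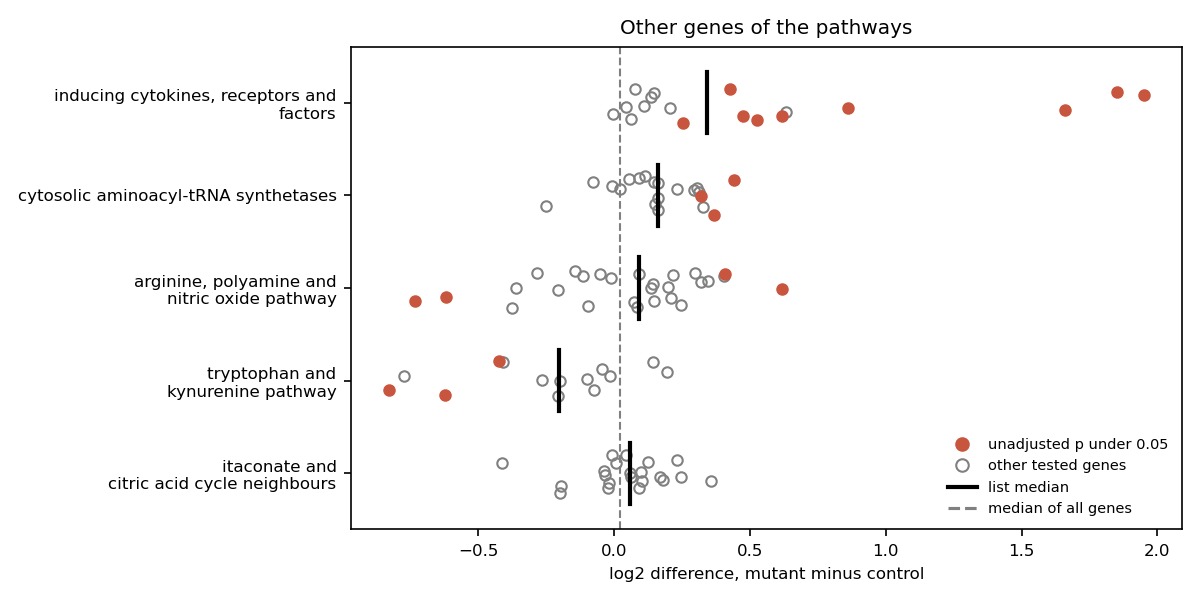
Log2 difference (mutant minus control, horizontal axis) of each measured gene in 5 lists of related genes, with filled points for an unadjusted limma p under 0.05, black bars at the list medians and a dashed line at the median of all genes. The median of the inducing genes is 0.34 and that of the tryptophan genes -0.20.

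Some of the signals known to switch on these enzymes had higher values in the mutants. Of 21 listed cytokines, receptors and transcription factors, 18 were measured, 17 had a difference above 0 and 1 below (11 above without scaling between arrays), with a median of 0.34 beside 0.02 over all genes. By limma, 9 were higher at an unadjusted p under 0.05 and none was lower, beside 5.31% and 3.98% of all genes. None passed the adjusted threshold, where the smallest adjusted p in the list was 0.418. Several of these genes were known to differ when the list was drawn up, so the count is not independent evidence. The count of 9 became 4 without scaling, 6 after quantile normalization, and 6 or 7 without any 1 array.

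Ifng, encoding interferon gamma, gave -3.21 and -3.85 in the controls, against -1.47 and -1.89 in the mutants (1.85 ± 0.32). Control replicate 2 lay near the lowest value called well above background on that array (-3.97). Across the other settings the Ifng difference ranged from 0.94 to 2.17. Il1b and Tnf, encoding cytokines of macrophages and neutrophils, differed by 1.66 ± 0.32 and 0.86 ± 0.19. These 3 genes kept an unadjusted p under 0.05 without any 1 array. The transcription factor genes that act below interferon gamma differed less, with Irf8 at 0.62 ± 0.15 and Irf1 at 0.43 ± 0.12. Irf1 missed the threshold without control replicate 2, without mutant replicate 1, after quantile normalization and without scaling, and Irf8 missed it without scaling. The cytokines Il4, Il13 and Il10, known as inducers of Arg1, were not well above background on any array.

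Markers of the cells known to make these enzymes did not all go the same way. Of 8 macrophage markers 1 was higher and 7 were lower (median -0.13), with Csf1r at 0.06 ± 0.28 and C1qa at -0.17 ± 0.31. The 6 markers of inflammatory monocytes were higher in 5 cases (median 0.20), and their summed level overlapped, at 374.5 and 454.3 in the controls, against 415.3 and 538.3 in the mutants. Neutrophil markers were higher in 4 of 7 cases, with a median of 1.48 and a summed level of 52.2 and 56.9 in the controls, against 61.1 and 81.7 in the mutants. The brightest of them, Csf3r and Ly6g, differed by -0.01 ± 0.13 and -0.14 ± 0.30, while the calprotectin gene S100a8, chosen after its values were seen, differed by 2.24 ± 0.78. Cxcr2, Mmp8 and Ngp of that list were not measured. Of 4 dendritic cell markers 1 was higher (median -0.31), with a summed level of 2.91 and 3.38 in the controls, against 2.75 and 2.64 in the mutants. T cell markers were lower in 8 of 8 cases (median -0.62) and endothelial markers in 6 of 6 (-0.31). The liver and pancreas list, with 3 measured genes, had a median of -0.34, and the liver gene Alb was not measured. The part of any of these cells in the enzymes' values was not tested. As in the epithelial list, the brightest probes dominate the monocyte and neutrophil sums.

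The genes with the most similar profiles were found by the Euclidean distance between 4-array profiles, each centred on its mean, among 13839 named genes. Nearest to Irg1 were Serpina3f (distance 0.35), Cxcl9 (0.36), an interferon-induced chemokine gene, and Timd4 (0.46), which was not well above background in the controls. Nearest to Ido1 were Gml (0.25), Cxcl10 (0.37), also an interferon-induced chemokine gene, and Fam26f (0.40). Nearest to Nos2 were Ccdc43 (0.06) and the mitotic kinesin genes Kif11 (0.17) and Kif14 (0.20). With 4 arrays, a small distance says that a gene had a similar difference and a similar spread between the replicates, and nothing more.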

How the data were processed

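Colon RNA of 4 mice was measured on 4 Cy3 arrays, grouped and numbered by the sample titles. The deposited values are spot intensity values from Agilent Feature Extraction 11.5.1.1, background-corrected per the file headers, with no normalization between arrays recorded there. The deposited flags for outliers, saturation and spots well above background, per the file headers, served as yes or no values. The log2 intensity minus the array's 75th percentile was averaged over spots not flagged as outliers (11 probes lacked such a spot on some array and were dropped). A probe had to be well above background on 2 or more arrays, and the brightest stood for its gene. Differences were fitted with limma 3.58.1 in R 4.3.3 (intensity trend, no block, Benjamini-Hochberg over 19325 genes) after a test on simulated data. The number of arrays limits the precision. Labels name the mice only by group and number, so p-values measure the spread between these arrays.

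The 9 members, 5 pathway lists (116 genes, 100 measured) and marker lists were chosen with earlier results of these data known. Named were the members, up to 4 genes per pathway list by smallest p, preset key genes (1 of them is not reported here), up to 2 bright markers per list, and the 3 genes nearest to Irg1, Ido1 and Nos2. Ddah1 was named in addition, beside Ddah2. Gene names are those of the array. All members matched a RefSeq symbol (GRCm38.p6). Probe coordinates are on mm9.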

Additional observations from a re-analysis of the deposited data

Results flagged for a closer look

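Arg1 was 1.46 higher in the mutant of the female pair, against -0.091 in the male pair, on opposite sides of 0. The control of the female pair lay near the background limit for Arg1. Arg2 differed by -0.91 in the female pair, against 0.35 in the male pair. Asl, the partner of Ass1, differed by 0.21 and -0.040. Each value compares 1 array with 1 array, and the difference between the pairs was not tested, since a genotype by sex term would leave no residual degrees of freedom.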

How the results depend on the processing

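Across the alternatives, 4 to 6 members had both mutants above both controls, and Irg1, Ido1, Nos2 and Wars stayed higher. Ass1 turned to -0.011 without scaling between arrays and Kmo to 0.046 with the mean of its probes. The count of genes at an unadjusted p under 0.05 was 3607 without the filter on dim probes and 864 to 2167 without 1 array. The count at least 2-fold different at that p was 263 (1.36%), 85 with normexp correction, 571 without the filter, 156 with a filter on all 4 arrays and 340 to 500 without 1 array. With the replicate number as a block, which here is also sex, 46 genes passed the adjusted threshold (35 higher, 11 lower), none of them in the 5 pathway lists, and 3382 had an unadjusted p under 0.05, among them Atf3 (0.0450) and Idh1 (0.0476). Deviations of same-numbered arrays correlated at r = 0.239 over genes, but 2 numbers do not settle a pairing. Of the calls at an unadjusted p under 0.05, 57.1% were higher, but 49.0% after quantile normalization and 71.0% with median scaling, and without scaling 252 were higher and 1941 lower. The last moved the median of all genes to -0.17, and median scaling to 0.10. The itaconate list's median was -0.067 after quantile normalization, 0.14 with median scaling, -0.13 without scaling, 0.012 without control replicate 1 and 0.11 without control replicate 2. The tryptophan list's was -0.12 with normexp correction, -0.12 with median scaling, -0.39 without scaling, -0.10 without the filter and -0.25 to -0.14 without 1 array. The arginine list's was -0.10 without scaling and -0.013 to 0.14 without 1 array. The synthetase list's was 0.24 with median scaling, -0.029 without scaling and 0.11 to 0.23 without 1 array (0.106 without mutant replicate 1). The inducing list's was 0.18 after quantile normalization, 0.42 with median scaling, 0.15 without scaling, 0.21 without the filter, 0.25 with the mean of a gene's probes and 0.29 to 0.43 without 1 array. The cause of these shifts was not tested. Slide as a block was not run, since there was 1 slide. Signals of Kynu, below background, limit what can be said of it.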
